A study of Mus musculus with 9 samples.

Results

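The genes described here are 10 genes of NAD metabolism, the sirtuins and Parp1 in mouse heart: Nampt, Nmrk1, Nmrk2, Nmnat1, Nmnat3, Naprt, Sirt1, Sirt3, Cd38 and Parp1. They were taken by gene symbol from a table of 29237 genes, each matched 1 row, and all 10 passed the minimum for testing, a mean of 0.5 FPKM over the libraries, which 12500 genes reached. FPKM is a fragment count divided by the transcript's length and the size of the library, so levels can be compared between genes.

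Polyadenylated RNA was sequenced from hearts of wild-type C57BL/6 mice of 8 to 12 weeks, in 9 libraries. The labels name 3 treatments with 3 libraries each: control, DOX (the doxorubicin model of dilated cardiomyopathy) and TPTN (a treated group). No label gives a dose, a day or a route, or says what TPTN stands for, whether the TPTN mice also received doxorubicin, or whether replicates are separate animals. The p-values therefore measure only the spread between these samples, which may be technical. Values given below for the hearts of a group are those of its 3 libraries, which may not be 3 separate hearts.

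NAD carries electrons in fuel oxidation and is also consumed as a substrate. The heart rebuilds it mainly by salvage: Nampt turns nicotinamide into nicotinamide mononucleotide (NMN), the kinases Nmrk1 and Nmrk2 make NMN from nicotinamide riboside, and the Nmnat enzymes turn NMN into NAD, while Naprt starts the route from nicotinic acid. Sirtuins use NAD to remove acyl groups from proteins, Parp1 uses it to build poly(ADP-ribose) at damaged DNA, and Cd38 hydrolyses it.

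The promoters of Nampt and Nmnat3 are shown because these are the synthesis genes with the smallest unadjusted p-values in limma (0.000883 and 0.00947), and that of Parp1 because it holds an E-box, the motif that the CLOCK and ARNTL (BMAL1) proteins bind. Each is the 250 bases before the transcription start in RefSeq, build GRCm38.p6, plus strand, and none overlaps an annotated exon. Those of Nampt and Nmnat3 lie inside the gene's GENCODE span, which starts further upstream. Capitals mark the GC box GGGCGG on either strand and the E-box CACGTG.
Nampt, chr12:32820085-32820334: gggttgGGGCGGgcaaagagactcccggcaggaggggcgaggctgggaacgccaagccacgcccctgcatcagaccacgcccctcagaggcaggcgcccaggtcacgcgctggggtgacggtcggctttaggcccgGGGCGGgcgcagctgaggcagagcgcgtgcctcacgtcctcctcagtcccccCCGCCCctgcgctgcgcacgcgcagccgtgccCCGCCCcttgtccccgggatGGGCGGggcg
Nmnat3, chr9:98296320-98296569: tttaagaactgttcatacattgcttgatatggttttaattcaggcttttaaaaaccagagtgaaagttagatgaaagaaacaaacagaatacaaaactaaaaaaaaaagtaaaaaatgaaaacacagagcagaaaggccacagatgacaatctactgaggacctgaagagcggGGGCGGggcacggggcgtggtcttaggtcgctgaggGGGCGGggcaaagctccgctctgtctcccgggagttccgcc
Parp1, chr1:180568641-180568890: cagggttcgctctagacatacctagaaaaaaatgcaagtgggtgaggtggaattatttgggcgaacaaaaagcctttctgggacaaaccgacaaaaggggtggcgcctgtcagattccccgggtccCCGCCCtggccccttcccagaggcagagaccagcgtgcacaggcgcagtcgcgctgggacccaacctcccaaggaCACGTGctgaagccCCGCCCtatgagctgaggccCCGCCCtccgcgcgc
The Nampt window held 5 GC boxes and 75.6% G and C, above 96.4% of the 32851 promoter windows in the RefSeq table. The Nmnat3 window held 2 GC boxes and 45.6% G and C, below the median of 52.4% over all windows. The Parp1 window held 3 GC boxes and an E-box that starts 49 bases before the transcription start. The table had 11 windows for 9 of the 10 genes, Naprt being the one without. A GC box stood in 8 of these 11, against 32.7% of all windows, and an E-box in 2, those of Parp1 and Sirt1, against 6.02%. TATAAA on either strand was found in 1, that of Nmrk2, against 12.4% of all windows. These matches describe the letters only.

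Hearts could be recognised by their markers. The 8 cardiomyocyte markers summed to between 9950 and 12706 FPKM in every library, and the 6 skeletal muscle markers with a row to at most 1.56. One library stood apart: DOX replicate 1 had 2588 FPKM over 7 atrial markers, against 204 and 297 in the other DOX libraries, 56.9 to 154 in control and 59.7 to 127 in TPTN. Values without it are given where it decides a result. In bulk RNA, fewer cells of a type and less RNA per cell cannot be told apart. Sequencing depth could not be estimated from the low values. Only 8.33 to 11.5% of them were within 0.05 of a whole multiple of the unit taken for 1 read pair. Any unit would give about this share. Depth is therefore not given, and whether it differed between groups is not known. Mitochondrial genes held 49.8 to 50.9% of the FPKM sum in control, 44.7 to 46.2% in DOX and 48.1 to 48.7% in TPTN, a share that moved with the groups and on which the scale of all other genes depends.

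The 10 genes covered a wide range of levels. Nampt was highest in 9 of 9 libraries, at a mean of 31.4 FPKM, above 93.6% of the genes tested. Parp1 was next in 9 of 9, at 7.79 FPKM. Naprt (4.93) and Sirt3 (4.78) could not be ordered, Naprt being higher in 5 of 9 libraries. Below them, Nmnat1 (3.18), Nmnat3 (2.91), Nmrk2 (2.80) and Cd38 (2.45) overlapped each neighbour in range. Sirt1 followed at 1.83 FPKM, below Cd38 in 9 of 9 libraries although their ranges over libraries overlapped, and Nmrk1 was lowest in 9 of 9 at 0.679 FPKM. The median of all genes tested was 3.07 FPKM.

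**Figure D1:**
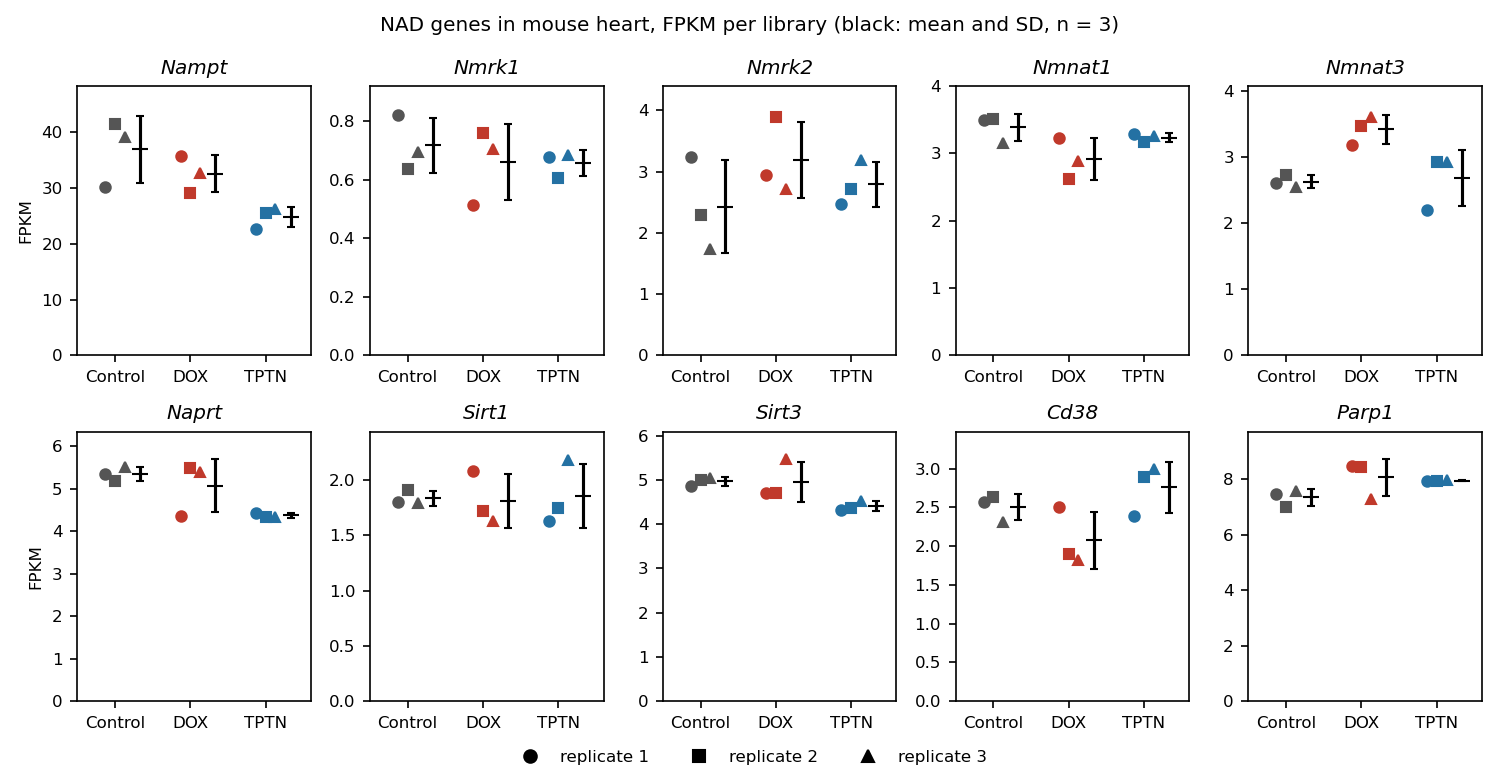
FPKM (y axis, from 0) of each of the 10 genes in the 9 libraries, by group (x axis), with a symbol per replicate and the group mean and SD in black. Nampt in TPTN lies between 22.7 and 26.2 FPKM, below all control and DOX libraries, and Nmnat3 in DOX between 3.19 and 3.61, above all others.

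Nampt encodes the rate-limiting enzyme of NAD salvage from nicotinamide (ENSMUSG00000020572, chromosome 12, 32819545 to 32853349). Its level was 30.2, 41.5 and 39.1 FPKM in control replicates 1, 2 and 3, 35.7, 29.1 and 32.7 in the DOX hearts and 22.7, 25.4 and 26.2 in the TPTN hearts. The TPTN libraries were the lowest of the 9 and overlapped neither other group, while control and DOX overlapped. TPTN was at 24.8 ± 1.87 FPKM against 36.9 ± 5.95 in control (SD, n = 3 each), a log2 change of -0.55 on the scale of FPKM + 1 (SE 0.12, limma adjusted p = 0.069), and so did not pass the threshold of 0.05. Without control replicate 1, the lowest control, the change was -0.68 and passed (limma adjusted p = 0.0148). Over the 18 other settings tried, the adjusted p ran from 0.0148 to 0.322. Against DOX, at 32.5 ± 3.33 FPKM, TPTN differed by -0.38 (SE 0.12, limma adjusted p = 0.109), and DOX differed from control by -0.17 (95% interval -0.43 to 0.09). In the authors' deposited table, whose header does not name the groups compared, Nampt had a q-value of 0.00784 and was marked significant. Nmnat3 (q-value 0.0577) and Cd38 (q-value 0.226) were marked so too in the authors' deposited table, and the other 7 of the 10 genes were not. The mark was on 2892 of the 29237 genes, whereas 1047 genes had a q-value under 0.05. Nampt was among the latter, and Nmnat3 and Cd38 were not.

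Nampt is known as a target of the circadian clock, so clock genes were listed beside it. Of 19 tested, Nr1d1, a repressor in the clock loop, rose in DOX against control (log2 change 0.64, limma adjusted p = 0.039), from 7.19 ± 0.431 to 11.8 ± 2.11 FPKM (n = 3 each). In TPTN it stood at 16.3 ± 2.95 FPKM and was higher than in control (1.07, limma adjusted p = 0.00969), as was Bhlhe40, another repressor (0.73, limma adjusted p = 0.0285). The period gene Per1 fell in TPTN against DOX (-1.15, limma adjusted p = 0.0134) and against control (-0.88, limma adjusted p = 0.0358). Per2 fell in TPTN against DOX (-0.42, limma adjusted p = 0.0386). These were all the calls among the 19. Clock, Arntl and the output gene Dbp passed in none of the 3 comparisons in limma. Dbp differed by 0.92 in DOX against control (limma adjusted p = 0.256), -0.063 in TPTN against DOX and 0.86 in TPTN against control (limma adjusted p = 0.392), where the groups did not overlap. The log2 changes of Clock lay between -0.11 and 0.17 and those of Arntl between -0.20 and 0.18. Dbp was at 1.02 FPKM in control replicate 1 and at 2.71 and 2.08 in the other controls, so the control with the lowest Nampt also had the lowest Dbp. The DOX and TPTN groups went the other way. DOX replicate 1 and TPTN replicate 3 each had the lowest Dbp and the highest Nampt of their group. The hour at which hearts were taken is in no label, and its part in these values was not tested.

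Between groups, neutrophil markers moved in the same direction as Nampt. The 6 markers summed to 6.15 to 14.2 FPKM in control, 2.33 to 5.27 in DOX and 0.754 to 1.12 in TPTN. Within DOX the order was reversed: replicate 1 had the lowest sum and the highest Nampt, replicate 2 the highest sum and the lowest Nampt. In control, replicate 2 was highest in both, but replicate 3 had the lowest sum and replicate 1 the lowest Nampt. TPTN replicate 1 was lowest of its group in both. Of the 3 markers tested, Lcn2 fell in TPTN against DOX (limma adjusted p = 0.0352), and Lcn2 and S100a9 fell in TPTN against control (limma adjusted p = 0.00819 and 0.0264). Ly6g, a defining neutrophil marker, was at 0 in 8 of 9 libraries, and S100a8 and Retnlg were at 0 in some. Their part in the Nampt values was not tested.

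Nmnat3, described as the mitochondrial NMN adenylyltransferase (ENSMUSG00000032456, chromosome 9, 98287435 to 98420438), was highest in DOX. It stood at 2.61, 2.73 and 2.55 FPKM in the control hearts, 3.19, 3.47 and 3.61 in the DOX hearts and 2.20, 2.92 and 2.92 in the TPTN hearts. The DOX libraries overlapped neither other group. DOX differed from control by 0.28 on the log2 scale (3.42 ± 0.214 against 2.63 ± 0.0934 FPKM, SD, n = 3 each; SE 0.09, limma adjusted p = 0.124), and TPTN from DOX by -0.27 (limma adjusted p = 0.123). These comparisons share the DOX libraries. Neither passed the threshold here or under any of the 18 other settings, where the lowest adjusted p was 0.0695 for DOX against control and 0.1 for TPTN against DOX. TPTN and control differed by 0.014 (95% interval -0.18 to 0.21).

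Nmnat1, the nuclear NMN adenylyltransferase (ENSMUSG00000028992, chromosome 4, 149467572 to 149485202), had its lowest values in DOX. It was at 3.50, 3.50 and 3.16 FPKM in the control hearts, 3.23, 2.62 and 2.89 in the DOX hearts and 3.29, 3.17 and 3.26 in the TPTN hearts. The groups overlapped except that 2 of the 3 DOX libraries lay below all others. DOX differed from control by -0.17 (limma adjusted p = 0.281) and TPTN from DOX by 0.12 (limma adjusted p = 0.42).

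The ratio of Nmnat3 to Nmnat1 within a library was 0.746, 0.779 and 0.806 in the control hearts. It was 0.986, 1.33 and 1.25 in the DOX hearts and 0.668, 0.924 and 0.898 in the TPTN hearts. Every DOX library was above every other, and the DOX ratio was 1.51-fold that of control and the TPTN ratio 0.698-fold that of DOX. In an exact two-sided permutation test each gave p = 0.1, the smallest that 3 against 3 libraries allow, and a Benjamini-Hochberg value of 0.48 over the 12 ratio comparisons made. The ratios were chosen after the levels had been seen. The other 3 ratios overlapped between the groups in all their comparisons: Nmrk2 to Nmrk1 ranged from 2.50 to 5.72, Nampt to Naprt from 5.11 to 8.20 and Sirt3 to Sirt1 from 2.08 to 3.36.

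**Figure D2:**
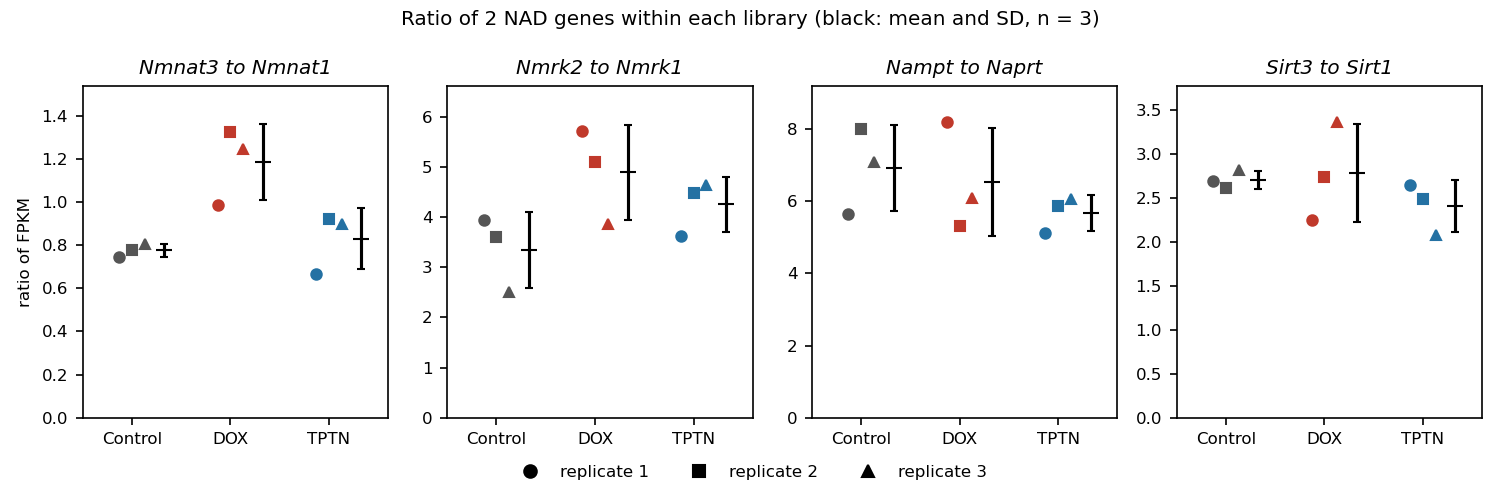
Ratio of FPKM of 2 genes within each library (y axis, from 0) by group (x axis), with a symbol per replicate and the mean and SD in black. Nmnat3 to Nmnat1 is 0.986 to 1.33 in DOX and at most 0.924 elsewhere, while the other ratios overlap between groups.

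Naprt, which starts NAD synthesis from nicotinic acid (ENSMUSG00000022574, chromosome 15, 75890956 to 75894481), was at 5.33, 5.18 and 5.50 FPKM in the control hearts, 4.36, 5.47 and 5.38 in the DOX hearts and 4.44, 4.34 and 4.33 in the TPTN hearts. TPTN lay below all control libraries and at the level of DOX replicate 1, the library with high atrial markers. TPTN differed from control by -0.24 (SE 0.08, limma adjusted p = 0.227) and from DOX by -0.17 (limma adjusted p = 0.26). Without DOX replicate 1 the TPTN against DOX value was -0.26 (limma adjusted p = 0.0545). Naprt shares 277 bases with its neighbour Eef1d on the same strand.

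Nmrk2, the muscle form of nicotinamide riboside kinase (ENSMUSG00000004939, chromosome 10, 81198170 to 81202051), is known to rise in failing hearts. It stood at 3.24, 2.30 and 1.74 FPKM in the control hearts, 2.94, 3.89 and 2.72 in the DOX hearts and 2.47, 2.72 and 3.19 in the TPTN hearts. Control alone spanned most of the range of the other groups. DOX against control gave a log2 change of 0.30 (95% interval -0.05 to 0.66, limma adjusted p = 0.368) and TPTN against DOX -0.14 (limma adjusted p = 0.673). The whole 3882-base gene lies within the antisense gene Atcayos, at 7.56 to 12.3 FPKM. The libraries were made with dUTP, which marks strand, but whether reads were counted by strand is not given in the sources used here, so the Nmrk2 values are uncertain.

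Nmrk1, the widely expressed riboside kinase (ENSMUSG00000037847, chromosome 19, 18631950 to 18652428), ranged from 0.515 to 0.822 FPKM with all groups overlapping. Its group means were 0.719 in control, 0.661 in DOX and 0.658 in TPTN. The TPTN against DOX change was -0.0005 (95% interval -0.18 to 0.18). A change of this gene, the lowest of the 10, is the most understated on the scale of FPKM + 1.

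Sirt3, the main mitochondrial deacetylase (ENSMUSG00000025486, chromosome 7, 140863666 to 140882309), was at 4.85, 5.00 and 5.05 FPKM in the control hearts, 4.70, 4.70 and 5.47 in the DOX hearts and 4.33, 4.36 and 4.53 in the TPTN hearts. The TPTN libraries were below all others. TPTN stood at 4.41 ± 0.111 FPKM and control at 4.97 ± 0.102, while DOX spread more widely, at 4.95 ± 0.448 (SD, n = 3 each). On the log2 scale TPTN differed from control by -0.14 (95% interval -0.30 to 0.01, limma adjusted p = 0.436) and from DOX by -0.14 (limma adjusted p = 0.309). Sirt3 shares 342 bases with Psmd13 and 707 with Ric8a, both on the opposite strand.

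Sirt1, the nuclear deacetylase (ENSMUSG00000020063, chromosome 10, 63319005 to 63381704), had nearly equal group means of 1.84 FPKM in the control hearts, 1.81 in the DOX hearts and 1.86 in the TPTN hearts. Its libraries ran from 1.63 to 2.18 FPKM, with both extremes outside control, and all groups overlapped. The 95% intervals of its log2 changes were -0.22 to 0.19 in DOX against control, -0.18 to 0.22 in TPTN against DOX and -0.20 to 0.21 in TPTN against control.

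Cd38, an NAD glycohydrolase found on immune and vascular cells (ENSMUSG00000029084, chromosome 5, 43868553 to 43912375), had its lowest values in DOX. It was at 2.57, 2.63 and 2.31 FPKM in the control hearts, 2.50, 1.90 and 1.82 in the DOX hearts and 2.39, 2.89 and 3.00 in the TPTN hearts. DOX replicates 2 and 3 were below all others, whereas DOX replicate 1 lay within the other groups. TPTN differed from DOX by 0.29 (2.76 ± 0.329 against 2.07 ± 0.372 FPKM, SD, n = 3 each; SE 0.10, limma adjusted p = 0.133). Without DOX replicate 1 the change was 0.39 and passed narrowly (limma adjusted p = 0.048), and over the 18 other settings the adjusted p ran from 0.048 to 0.358. DOX differed from control by -0.20 (limma adjusted p = 0.345). Lymphocyte markers, of which 0 of 8 reached the minimum, summed to at most 1.08 FPKM in any library. Endothelial markers summed to 124 to 129 FPKM in control, 129 to 134 in DOX and 124 to 146 in TPTN, smooth muscle and pericyte markers to 134 to 188, 145 to 188 and 164 to 201, and macrophage markers to 73.2 to 84.3, 62.9 to 83.7 and 73.3 to 78.2. All 8 markers of each of these 3 lists were tested, and the part of these cells in the Cd38 values was not tested. Of the 8 endothelial markers only Kdr passed the threshold in TPTN against DOX (log2 change 0.48, limma adjusted p = 0.0303), and the median over the 8 was -0.044.

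Parp1, the main DNA damage-activated poly(ADP-ribose) polymerase (ENSMUSG00000026496, chromosome 1, 180568924 to 180601254), was at 7.47, 6.99 and 7.59 FPKM in the control hearts, 8.46, 8.45 and 7.29 in the DOX hearts and 7.93, 7.95 and 7.99 in the TPTN hearts. TPTN lay above all control libraries, while DOX replicate 3 lay within control. The log2 change was 0.12 in DOX against control (95% interval -0.04 to 0.27, limma adjusted p = 0.437), -0.015 in TPTN against DOX and 0.10 in TPTN against control (limma adjusted p = 0.605). Scaled to an FPKM sum that leaves out mitochondrial genes and copies of them, the change in DOX against control was -0.030.

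Read together, 0 of the 10 genes passed the threshold in limma in DOX against control, where 2.63% of all genes tested did. None (0 of 10) passed in TPTN against DOX, where 3.26% of genes did, and 0 of 10 in TPTN against control, where 0.72% did. At an unadjusted p under 0.05 limma gave 1 of 10 in DOX against control (Nmnat3, against 18% of all genes). It gave 3 of 10 in TPTN against DOX (Nampt, Nmnat3 and Cd38, against 20.6%) and 2 of 10 in TPTN against control (Nampt and Naprt, against 13.1%). The groups of libraries did not overlap for 1 of 10 genes in DOX against control (22.8% of all genes), with 1 higher (17.7%) and 0 lower (5.1%). They did not for 3 of 10 in TPTN against DOX (24.5%), with 0 higher (10.4%) and 3 lower (14.1%). In TPTN against control they did not for 4 of 10 (21.3%), with Parp1 higher (15.2%) and Nampt, Naprt and Sirt3 lower (6.03%). The last share of lower genes is above that of all genes, but it rests on 3 genes and was not tested. The median log2 change of the 10 genes was -0.034, -0.076 and -0.022 in the 3 comparisons in that order, beside 0.044, -0.0079 and 0.037 over all genes tested.

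**Figure D3:**
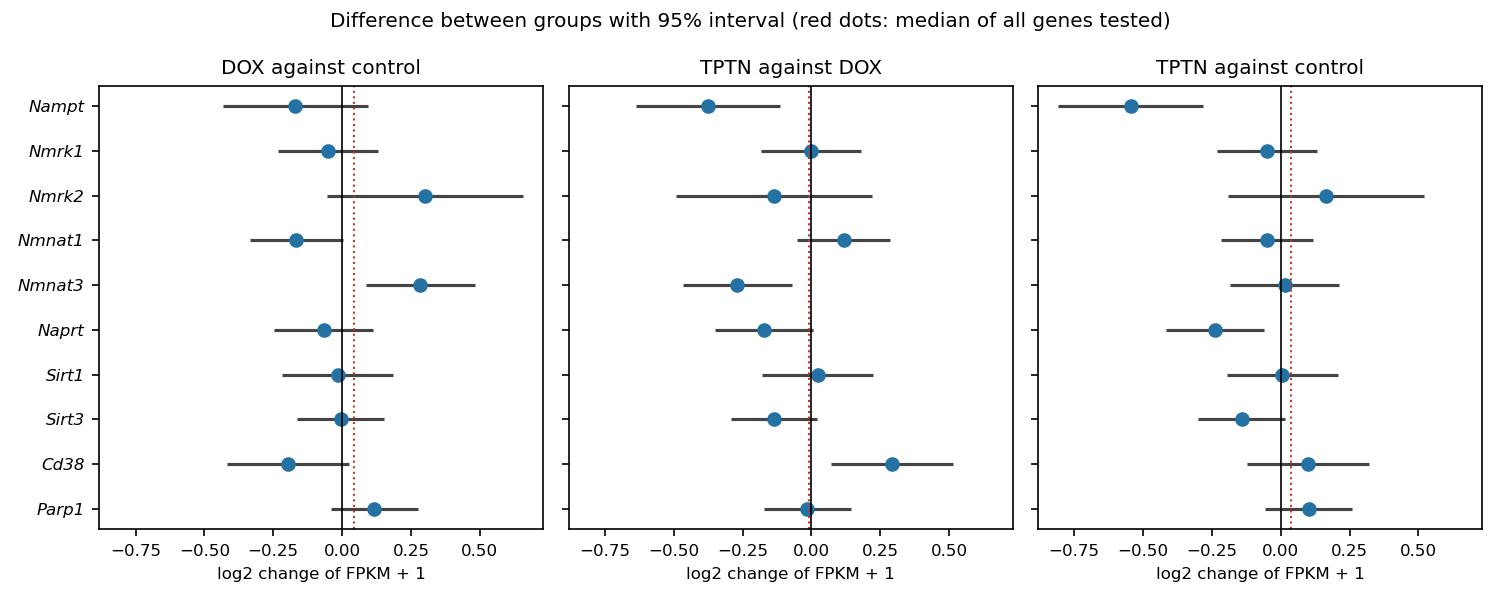
Log2 change of FPKM + 1 (x axis) for the 10 genes (y axis) in each comparison, with points for limma estimates, lines for 95% intervals and a dotted red line for the median of all genes tested. Nampt in TPTN against control, at -0.55, lies farthest from 0, and the intervals of Sirt1 and Nmrk1 span 0 in each panel.

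Levels in single libraries also showed which of the 10 genes varied alike. Over the 9 libraries, Pearson's r of log2(FPKM + 1) was highest for Naprt with Sirt3 (0.754), Nmnat1 with Cd38 (0.727) and Nampt with Sirt3 (0.725). It was lowest for Nmnat1 with Nmnat3 (-0.686) and Naprt with Cd38 (-0.661). These are descriptions of 45 pairs that share libraries and groups. Among 4059 other named genes with a mean of at least 5 FPKM, the patterns most like that of Nampt were those of Herpud1, an endoplasmic reticulum protein induced by misfolded proteins (r = 0.98), Phyhd1 (0.97) and Aldh6a1, a mitochondrial enzyme of valine breakdown (0.97). Herpud1 stood at 44.9 to 65.3 FPKM in control, 46.9 to 52.7 in DOX and 33.5 to 35.5 in TPTN. For Nmrk2 they were Cdc42se2 (0.92), Phyhip (0.90) and the small heat shock protein gene Hspb6 (0.90). For Sirt3 they were Rab24 (0.92), Ptgds (0.91) and the muscle ubiquitin ligase gene Trim54 (0.90), and for Parp1 Rcn3 (0.94), the matrix metalloproteinase gene Mmp2 (0.93) and Vat1 (0.93). With so many genes searched, high values of r arise in any set of 9 libraries.

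The rest of the pathway was read from a list of 47 other NAD genes, 33 of which reached the minimum. Genes of synthesis from tryptophan were mostly below it: 8 of 10, among them Tdo2, Ido1, Kmo, Haao and Qprt, had means under 0.113 FPKM, and Nadsyn1, the NAD synthetase, stood at 0.919. The hydrolases Bst1 and Sarm1 and the NMN adenylyltransferase Nmnat2 were below it too. Leaving out Nnt, described next, the most abundant was Macrod1, which removes ADP-ribose from proteins, at 84.1 FPKM. Sirt2 was the highest sirtuin at 11.6 FPKM, and Slc25a51, the mitochondrial NAD carrier, stood at 8.96.

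Nnt, the mitochondrial transhydrogenase gene, has 2 rows under different identifiers, at 2.24 to 95.1 and 0 to 128 FPKM, whose values traded places between libraries of 1 group. Their sum was 119, 85.9 and 91.3 FPKM in the control hearts, 97.9, 88.1 and 95.1 in the DOX hearts and 53.3, 131 and 93.7 in the TPTN hearts. The rows were left out of the counts after this was seen, which leaves 32 other genes.

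Of these 32, 0 passed the threshold in limma in each comparison, against the shares of all genes given above. At an unadjusted p under 0.05 limma gave 2 of 32 in DOX against control, beside 18% of all genes. It gave 6 of 32 in TPTN against DOX, beside 20.6%, and 3 of 32 in TPTN against control, beside 13.1%. Of the Parp family and its partners, 15 of 17 had a log2 change above 0 in TPTN against DOX. Over all genes tested 6007 of 12500 did. The median of the 17 was 0.074 beside -0.0079 over all genes. Under the 3 other scalings 15 or 16 of 17 were above 0. One of these, the sum without mitochondrial genes and copies, moved the median of all genes to 0.085. Without TPTN replicate 2, 11 of 17 were above 0. In DOX against control, which shares the DOX libraries, 13 of the 17 were below 0. Parp9, an interferon-induced family member, was at 2.62, 2.79 and 2.47 FPKM in DOX and 3.21, 3.90 and 3.49 in TPTN (log2 change 0.32, SE 0.09, limma adjusted p = 0.0751). The groups did not overlap for Parp9, which passed under median ratios (limma adjusted p = 0.0472) and when scaled without mitochondrial genes and copies (0.0277). Tnks2, a tankyrase gene, was 0.26 higher (limma adjusted p = 0.122, and 0.0381 in that last scaling) and Macrod1 0.27 lower on the log2 scale, at 76.1 against 92.7 FPKM (limma adjusted p = 0.125). Against control, TPTN differed by 0.22 in Parp9, -0.31 in Aox1, an oxidase of nicotinamide products, and -0.21 in the mitochondrial NAD kinase gene Nadk2, none of which passed (limma adjusted p = 0.321, 0.357 and 0.368).

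All 5 other sirtuins had a log2 change above 0 in DOX against control and below 0 in TPTN against DOX, comparisons that share the DOX libraries. Sirt1, at -0.017 and 0.022, did not share this pattern of signs, nor did Sirt3, at -0.0053 and -0.14. Sirt2, counted among the 5, was at 0.0064 and -0.042. In DOX against control the sign thus parts Sirt2 from Sirt3 although both were close to 0. Over all genes tested 7846 of 12500 were above 0 in the first and 6493 below 0 in the second. With median ratios, quantile normalization, or without control replicate 2 or DOX replicate 1, 4 of the 5 were above 0 in the first. Without TPTN replicate 1, 4 of the 5 were below 0 in the second. The median over the 5 was 0.099 and -0.077, beside 0.044 and -0.0079 over all genes. With mitochondrial genes and copies left out of the sum, 2 of 5 were above 0 in the first and 2 of 5 below 0 in the second, but that scaling moved the median of all genes as well, to -0.071 and 0.085. The sirtuin median less that of all genes was 0.055 and -0.070 before and 0.065 and -0.085 after. The largest was that of Sirt5, a mitochondrial desuccinylase gene, at 3.54, 2.94 and 3.84 FPKM in the control hearts, 3.68, 4.42 and 4.40 in the DOX hearts and 3.40, 3.32 and 3.62 in the TPTN hearts. It differed by 0.22 between DOX and control (limma adjusted p = 0.242) and by -0.21 between TPTN and DOX (limma adjusted p = 0.222). In DOX against control the other smallest p-values were those of Nnmt, which methylates nicotinamide (log2 change 0.23, limma adjusted p = 0.263), and the tankyrase gene Tnks (-0.14, limma adjusted p = 0.365).

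**Figure D4:**
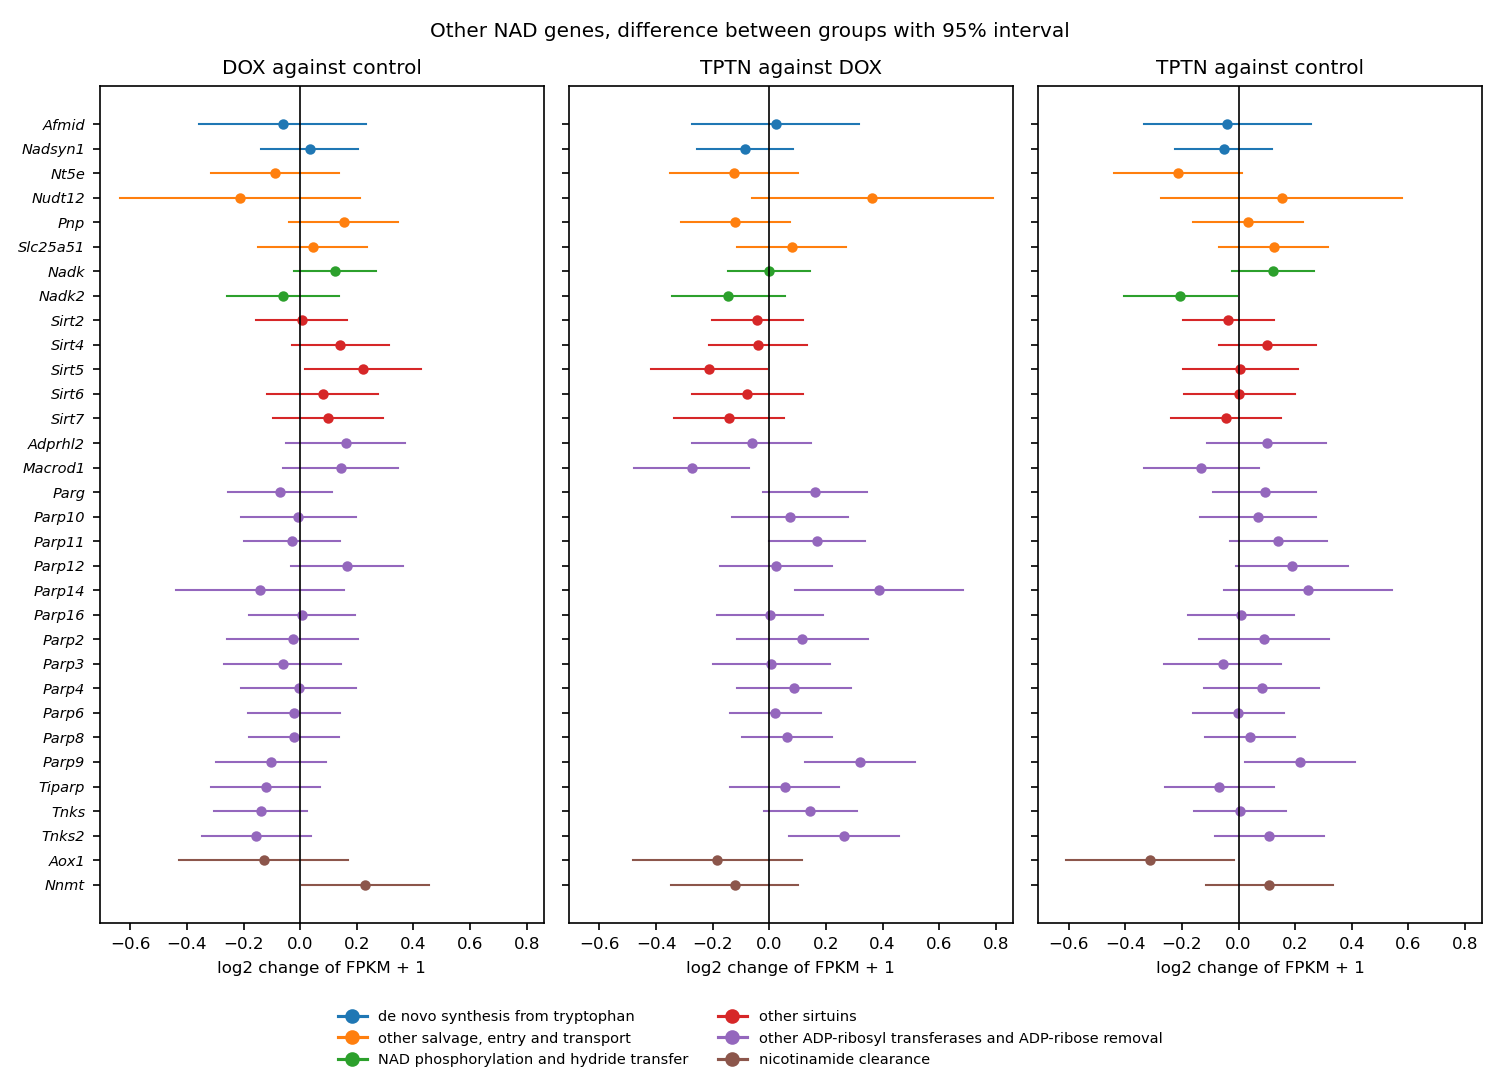
Log2 change of FPKM + 1 (x axis) for the 32 other NAD genes tested (y axis) in each comparison, coloured by role, with points for limma estimates and lines for 95% intervals. Most Parp family points lie to the right of 0 in TPTN against DOX, led by Parp14 at 0.39 and Parp9 at 0.32, and 0 genes passed the threshold.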

How the data were processed

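The authors deposited 1 table of FPKM values for 29237 genes in 9 libraries. Per the submitters' processing notes, cutadapt 1.9, HISAT2 2.0.4, StringTie 1.3.4d, DESeq2, edgeR and GRCm38 were used, with no step assigned to each. The authors' table also holds a p-value and a q-value per gene, with no groups named in its header. FPKM depends on the library's total, and mitochondrial genes made up 44.7 to 50.9% of its sum and 7 nuclear copies of them 18.0 to 19.7%, so scaling was varied. Low values were not whole multiples of a read pair (8.33 to 11.5% were, within 0.05), so no count test was made.

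log2(FPKM + 1) of the 12500 genes with a mean of at least 0.5 FPKM was fitted with limma 3.58.1 (R 4.3.3; group means, trend, robust estimation), with Benjamini-Hochberg adjustment over all of them and a threshold of 0.05. The fit was also run on simulated normal values, with the same spread for a gene in all libraries. These hold no shift of scale and no outlying library, so they cannot show how the fit handles either. Every gene of interest was reported. Of the other NAD genes, those past the threshold and the 3 with the smallest p in each comparison were named, besides levels. Genes named outside this rule (Parp14, Kdr, Lcn2, S100a9, Bhlhe40) were chosen after their values were seen. Genes and lists were chosen with earlier results of these data known. Positions are those of GENCODE M21 (GRCm38), promoters those of RefSeq. Python 3.11.15 and pandas 2.3.3 were used for tables.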

Additional observations from a re-analysis of the deposited data

How the results depend on the processing

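Over 537 log2 changes of the 10 genes under other settings, 237 had the same estimate as before, as settings such as the block or leaving out a library of the group not compared do not alter it. Of the 300 estimates that moved, 265 kept their sign and 35 changed it, and 2 values newly passed the threshold. Those 2, Cd38 in TPTN against DOX without DOX replicate 1 (0.39) and Nampt in TPTN against control without control replicate 1 (-0.68), made the count of the 10 genes past the threshold 1 in each case, against 0 under the others. Leaving out each library in turn gave, in DOX against control, -0.095 to 0.014 for Nmrk1, -0.12 to 0.020 for Naprt, -0.086 to 0.030 for Sirt1 and -0.067 to 0.025 for Sirt3. In TPTN against DOX it gave -0.066 to 0.043 for Nmrk1, -0.058 to 0.091 for Sirt1 and -0.078 to 0.017 for Parp1, and in TPTN against control -0.035 to 0.11 for Nmnat3 and -0.075 to 0.062 for Sirt1. With the sum that leaves out mitochondrial genes and copies, Parp1 was -0.030 in DOX against control and 0.10 in TPTN against DOX, where Nmrk1 was 0.053. Also in TPTN against DOX, Nmrk1 was 0.0063 with a pseudocount of 0.1, 0.0032 with median ratios and 0.0048 with quantile normalization, and Parp1 0.014 with quantile normalization. In TPTN against control, median ratios, quantile normalization and that sum gave -0.025, -0.037 and -0.010 for Nmnat3 and -0.029, -0.033 and -0.016 for Sirt1. The cause was not tested.

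Counts over all genes moved more. In DOX against control 329 genes passed (279 higher, 50 lower), against 176 with only the groups compared, 173 with median ratios (110 and 63), 143 with quantile normalization (76 and 67), 270 with the sum that leaves out mitochondrial genes and copies (61 and 209), 2 with no filter on low values and 2 (without control replicate 2) to 314 leaving out 1 library. In TPTN against DOX 407 passed (99 higher, 308 lower), against 2 with no filter, 336 with quantile normalization (173 and 163), 671 with that sum (542 and 129) and 45 (without TPTN replicate 3) to 468 leaving out 1 library. In TPTN against control 90 passed, against 6 with no filter and 21 (without TPTN replicate 3) to 148 leaving out 1 library. Other NAD genes past the threshold in TPTN against DOX numbered 1 with median ratios and 2 with that sum, against 0. Replicate numbers did not pair the samples (correlations of same-numbered deviations from -0.261 to 0.0233), and with the replicate number as a block 170 genes passed in DOX against control and 159 in TPTN against DOX, with 0 of the 10 genes. Precision is limited by 3 libraries a group and, for Nmrk1, by its low level.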
